A study of Mus musculus with 2 samples.

Results

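The genes described here are 10 feedback inhibitors of MAP kinase signalling: the dual-specificity phosphatase genes Dusp1, Dusp2, Dusp4, Dusp5, Dusp6, Dusp7 and Dusp10, the Sprouty genes Spry2 and Spry4, and Spred1. They were chosen by gene symbol, and 10 of 10 were present among the 15239 genes of the deposited table. Messenger RNA had been sequenced from normal mouse mammary gland basal cells carrying a short hairpin RNA against Cdk14 (Cdk14-sh) or a scrambled hairpin (Scramble control). Cdk14, a kinase of the cyclin-dependent family, is held at the membrane by cyclin Y, and the comparison asks which transcripts differ when it is targeted. The sources used here give no strain, age, vector or number of hairpins. The labels name 3 materials, since the design text speaks of the human breast cancer line MDA-MB-231 and the extraction text of retinas. The identifiers are mouse genes and the sample labels were followed. With 1 library per group, replicate spread is unknown, and differences are described without tests or p-values.

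Growth factor receptors activate Ras, which drives the kinases Raf, MEK and ERK in turn, while stress signals act through the related kinases JNK and p38. Some of the genes switched on by these kinases encode inhibitors of the same pathway. Dual-specificity phosphatases of this family remove the activating phosphates from the threonine and tyrosine of MAP kinases, and Sprouty and Spred proteins act further up, between the receptor and Raf. Many of their messages are short-lived and follow recent kinase activity, so they are widely used as readouts of it. In the mammary gland, epidermal and fibroblast growth factor signalling through this route supports branching of the ducts.

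Values are FPKM, fragments scaled to gene length and to the library's total, so levels can be set against each other between genes. With the commonest lowest value taken as 2 reads, the libraries corresponded to totals of 10177185 reads for Cdk14-sh and 10186924 reads for Scramble control. Ranges in parentheses are 95% counting intervals, which leave out every other source of error and compare these libraries rather than the conditions. The targeted gene itself, Cdk14, was at 0.713 FPKM in Cdk14-sh and 2.06 FPKM in Scramble control, a ratio of 0.345 (0.256 to 0.453). Of the 8 basal and myoepithelial markers, 8 were in the table, 4 higher and 4 lower in Cdk14-sh. Their summed levels, mostly of Krt14 and Acta2, were 2080 FPKM in Cdk14-sh and 2624 FPKM in Scramble control. Of the 6 retina markers 2 were listed, with summed levels of 1.78 FPKM in Cdk14-sh and 3.47 FPKM in Scramble control.

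The 10 genes split in direction, and their summed level was nearly the same in the libraries. The sum was 1752 FPKM in Cdk14-sh against 1719 FPKM in Scramble control, a ratio of 1.02. Within that sum, Dusp5 and Dusp10 were more than 2-fold higher in Cdk14-sh, and Dusp1 and Spry4 stood close to 2-fold lower. On the log2 scale with a pseudocount of 1, 7 of the 10 were above 0, against 51.4% of the 12819 measured genes, those averaging 1 FPKM or more. With the same scale, 2 of 10 were at least 2-fold higher, where 14.3% of measured genes were, and 0 of 10 were at least 2-fold lower, where 13.5% of measured genes were. These shares are near the background. The median log2 ratio of the 10 genes was 0.32, beside 0.02 over all measured genes. It was 0.19 over the 681 genes averaging 100 FPKM or more, a level that Spry2, Dusp1, Dusp6 and Dusp5 reached. The count of 0 rests on a narrow margin: Dusp1 had a log2 ratio of -0.996 and Spry4 one of -0.94, and a small rescaling of either library moves the count to 1 or 2. At a limit of 1.5-fold, 3 of 10 were higher (Dusp5, Dusp10 and Dusp7; 25.3% of measured genes) and 2 of 10 lower (Dusp1 and Spry4; 24.5% of measured genes). Dusp4, 1.57-fold higher without a pseudocount, missed this count narrowly, with a log2 ratio of 0.58 on the scale used.

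**Figure D1:**
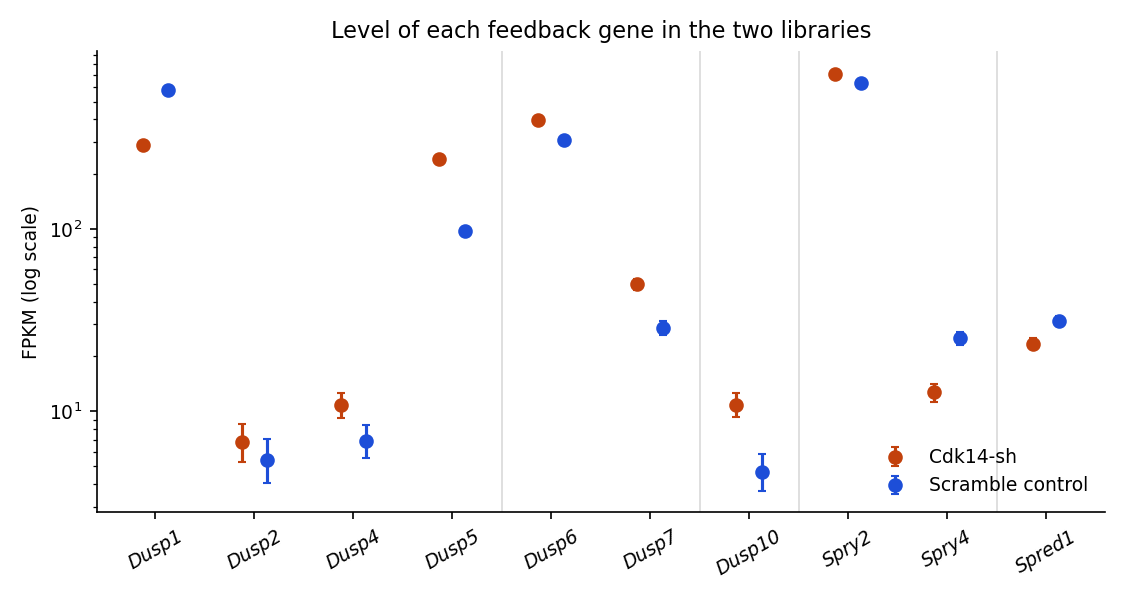
FPKM (log axis) of the 10 genes in the Cdk14-sh library (orange, left of each pair) and the Scramble control library (blue, right); bars are 95% Poisson intervals for counting error, and thin vertical lines separate the roles. Spry2, Dusp6 and Dusp1 are the most abundant, and Dusp1 and Dusp5 differ most among the genes above 100 FPKM on average.

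The promoters of 3 of these genes are shown because they carry the results that follow: Dusp5 has the highest ratio of the 10, Dusp1 the lowest, and Spry2 the highest level in both libraries. RefSeq promoters (GRCm38.p6, 250 bases before to 50 after the start site) were found for 8 of the 10 genes, with no entry for Dusp4 and Spry4. Both strands were searched for the CRE core TGACG, bound by CREB and ATF factors, the full CRE TGACGTCA, which contains that core on each strand, the ETS site CCGGAA, the AP-1 site TGANTCA, the CArG box bound by serum response factor, and TATAAA. Capitals mark every match. The promoter of Dusp5 is at chr19:53528895-53529194 on the plus strand, that of Dusp1 at chr17:26508423-26508722 on the minus strand, and that of Spry2 at chr14:105896770-105897069 on the minus strand.
Dusp5: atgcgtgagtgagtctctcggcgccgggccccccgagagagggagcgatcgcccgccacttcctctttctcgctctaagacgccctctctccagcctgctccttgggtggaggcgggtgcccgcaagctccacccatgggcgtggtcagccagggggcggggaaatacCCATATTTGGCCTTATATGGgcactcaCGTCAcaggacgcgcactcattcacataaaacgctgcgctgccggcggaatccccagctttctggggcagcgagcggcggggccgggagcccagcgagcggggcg
Dusp1: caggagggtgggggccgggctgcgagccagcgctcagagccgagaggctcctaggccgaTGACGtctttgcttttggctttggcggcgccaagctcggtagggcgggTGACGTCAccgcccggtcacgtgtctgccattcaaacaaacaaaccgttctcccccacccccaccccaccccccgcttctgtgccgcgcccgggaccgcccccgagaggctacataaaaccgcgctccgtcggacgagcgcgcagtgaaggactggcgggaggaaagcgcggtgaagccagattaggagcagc
Spry2: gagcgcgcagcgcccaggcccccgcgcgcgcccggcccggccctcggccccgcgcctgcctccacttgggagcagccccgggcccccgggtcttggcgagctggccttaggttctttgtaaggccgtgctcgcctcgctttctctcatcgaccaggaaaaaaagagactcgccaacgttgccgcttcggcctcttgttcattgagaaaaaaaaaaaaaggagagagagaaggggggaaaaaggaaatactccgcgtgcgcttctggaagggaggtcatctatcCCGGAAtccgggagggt

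The Dusp5 promoter held 2 CArG boxes directly next to each other, from 82 to 73 and from 72 to 63 bases before the start site, and a CRE core 55 to 51 bases before it. A CArG box was present in 1.64% of the 32544 promoters searched, and 2 or more were present in 0.0184% (6 promoters). The Dusp1 promoter held a full CRE 143 to 136 bases before the start site and a further CRE core 191 to 187 bases before it. A full CRE was found in 1.80% of promoters and a CRE core in 20.9%. In Spry2 the only match was an ETS site, 34 to 39 bases after the start site, a motif found in 15.0% of promoters. Among the 8 genes, 3 had a CRE core (Dusp1, Dusp2 and Dusp5), 1 had a full CRE, 1 had a CArG box and 1 had an ETS site. None had the AP-1 site or TATAAA, which were in 7.79% and 13.6% of promoters. The promoters of Dusp6, Dusp7, Dusp10 and Spred1 held none of these letters in this window. All 8 were richer in G and C than the median promoter (53%), with 57.3% in Dusp6 and 78.7% in Dusp7 at the ends of the range.

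**Figure D2:**
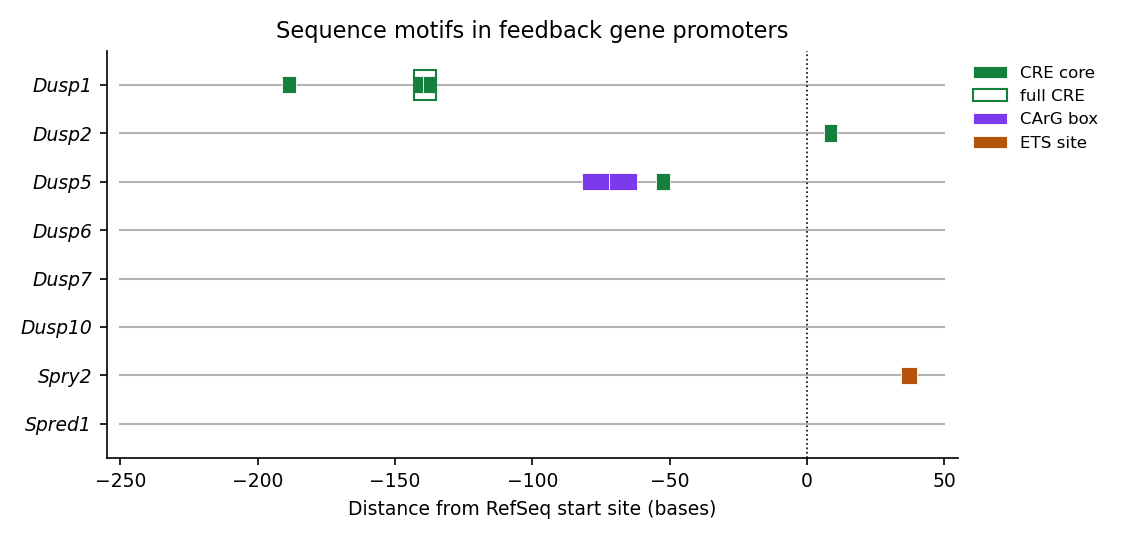
Matches in the 8 RefSeq promoters by distance from the start site in bases (0, dotted line; negative is upstream). Each grey line is 1 promoter; the adjacent CArG boxes of Dusp5 lie 82 to 63 bases upstream and the full CRE of Dusp1 lies 143 to 136 bases upstream.

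The inducible nuclear phosphatases went in opposite directions. Dusp5, a nuclear phosphatase selective for ERK, was at 241 FPKM in Cdk14-sh and 97.6 FPKM in Scramble control. It was therefore 2.47-fold higher (2.31 to 2.64) in Cdk14-sh, from 6064 reads against 2458, and its log2 ratio of 1.30 was equalled or passed by 9.28% of measured genes. Abundant genes scattered less: of the 681 genes averaging 100 FPKM or more, 5.43% (37 genes) were at least 2-fold higher, and Dusp5 was one of them. Of the exonic bases of Dusp5 (plus strand of chromosome 19, 53529109 to 53542431, GRCm38), 22.1% are also covered by AC137853.2, an opposite-strand gene that is not in the table. No source used here says whether reads were assigned by strand.

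Dusp1, the early response phosphatase that acts on p38, JNK and ERK, was at 289 FPKM in Cdk14-sh and 577 FPKM in Scramble control. It was 1.997-fold lower (1.93 to 2.07). Its difference of -288 FPKM was the largest of the 10 genes, followed in size by the 143 FPKM of Dusp5. Dusp1 was the gene with the 60th highest level in Scramble control, and it stood at rank 175 in Cdk14-sh, while Dusp5 stood at rank 233 in Cdk14-sh and 679 in Scramble control. Ranks and ratios inside a library do not depend on how the libraries are scaled to each other. The level of Dusp1 was 1.20 times that of Dusp5 in Cdk14-sh (1.15 to 1.25), against 5.91 times in Scramble control (5.57 to 6.28). The balance of these phosphatases thus differed 4.93-fold between the libraries. Of the 681 abundant genes, 6.02% (41 genes) were at least 2-fold lower, and Dusp1 stood just short of that limit.

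The other nuclear phosphatases were scarce. Dusp4, which acts on ERK and JNK, was at 10.8 FPKM in Cdk14-sh and 6.88 FPKM in Scramble control, 1.57-fold higher (1.20 to 2.04) from 301 and 192 reads. Dusp2, best known from activated lymphocytes, was at 6.77 FPKM in Cdk14-sh and 5.39 FPKM in Scramble control. The interval of its ratio of 1.26 (0.868 to 1.82) includes 1, so at 138 and 110 reads a difference was not detectable. Together the 4 nuclear phosphatases summed to 547 FPKM in Cdk14-sh and 687 FPKM in Scramble control, a ratio of 0.797. Of the 4, only Dusp1 was lower in Cdk14-sh.

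Both cytoplasmic ERK phosphatases among the 10 genes were higher in Cdk14-sh. Dusp6, which binds ERK in the cytoplasm and is among the most direct transcriptional targets of the ERK pathway, was at 395 FPKM in Cdk14-sh and 307 FPKM in Scramble control. That is a ratio of 1.29 (1.24 to 1.34), beyond counting error but equalled or passed by 34.1% of measured genes. Dusp7, its close relative, was at 49.8 FPKM in Cdk14-sh and 28.8 FPKM in Scramble control, 1.73-fold higher (1.55 to 1.94). Their summed level was 445 FPKM in Cdk14-sh and 336 FPKM in Scramble control. The order of Dusp1 and Dusp6 was reversed between the libraries, with Dusp1 at 0.731 times the level of Dusp6 in Cdk14-sh (0.704 to 0.759) and 1.88 times in Scramble control (1.82 to 1.94).

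Dusp10, a phosphatase that prefers JNK and p38 to ERK, was at 10.9 FPKM in Cdk14-sh and 4.65 FPKM in Scramble control. It was 2.34-fold higher (1.76 to 3.12), from 336 reads against 144, so its interval reaches below 2-fold. Its log2 ratio with the pseudocount was 1.07, and 12.9% of measured genes were as high or higher. In Scramble control it had the lowest level of the 10 genes, and in Cdk14-sh its level could not be separated from that of Dusp4 by counting error.

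**Figure D3:**
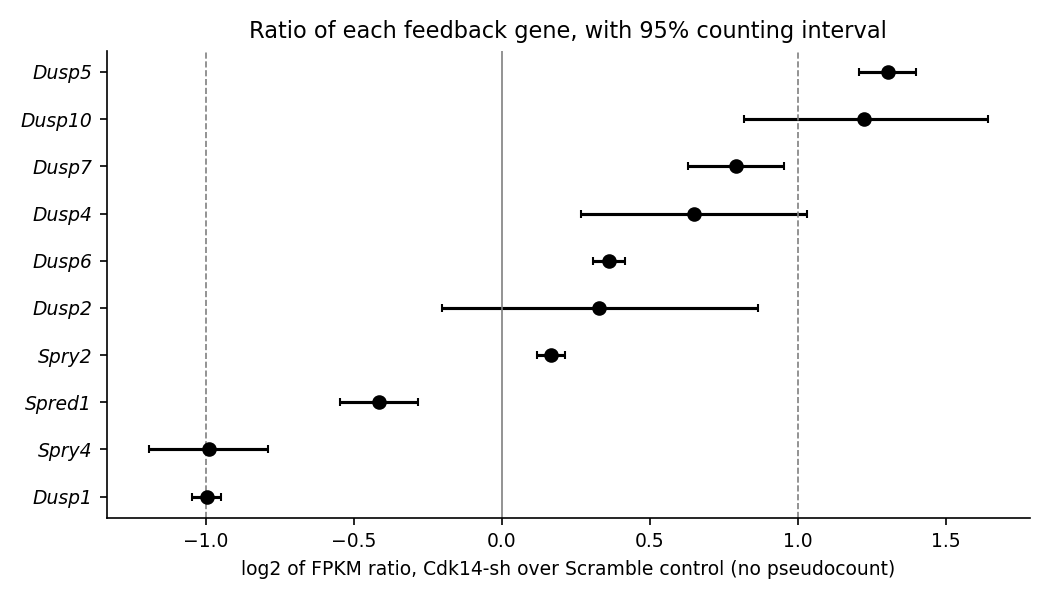
log2 of the FPKM ratio, Cdk14-sh over Scramble control, without pseudocount, for the 10 genes in order of ratio; bars are 95% counting intervals and dashed lines mark 2-fold. Dusp5 lies wholly above 2-fold, the intervals of Dusp1 and Spry4 straddle 2-fold lower, and that of Dusp2 includes no difference.

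The Sprouty and Spred genes differed among themselves as well. Spry2, an inhibitor of receptor tyrosine kinase signalling, was the most abundant of the 10, at 713 FPKM in Cdk14-sh and 635 FPKM in Scramble control. Its ratio was 1.12 (1.09 to 1.16), and it held rank 47 in Cdk14-sh and rank 53 in Scramble control among 15224 gene symbols. Spry4, of the same family, was at 12.7 FPKM in Cdk14-sh and 25.2 FPKM in Scramble control, 1.99-fold lower (1.73 to 2.29). Spry2 therefore exceeded Spry4 56.2-fold in Cdk14-sh (50.2 to 63.2) and 25.2-fold in Scramble control (23.2 to 27.4). Spred1, which brings the Ras inhibitor neurofibromin to the membrane, was at 23.4 FPKM in Cdk14-sh and 31.3 FPKM in Scramble control. This was 1.33-fold lower (1.22 to 1.46), and 31.2% of measured genes had a log2 ratio as low or lower.

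The order of levels showed which differences between genes exceed counting error. In Cdk14-sh it ran Spry2, Dusp6, Dusp1, Dusp5, Dusp7, Spred1, Spry4, Dusp10, Dusp4 and Dusp2. In Scramble control it ran Spry2, Dusp1, Dusp6, Dusp5, Spred1, Dusp7, Spry4, Dusp4, Dusp2 and Dusp10. In the Cdk14-sh order the counting intervals of neighbours overlapped for Spry4 with Dusp10 and for Dusp10 with Dusp4. In Scramble control they overlapped for Spred1 with Dusp7, Dusp7 with Spry4, Dusp4 with Dusp2 and Dusp2 with Dusp10. The most abundant 3, Spry2, Dusp1 and Dusp6, made up 79.7% of the summed level in Cdk14-sh and 88.4% in Scramble control.

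**Figure D4:**
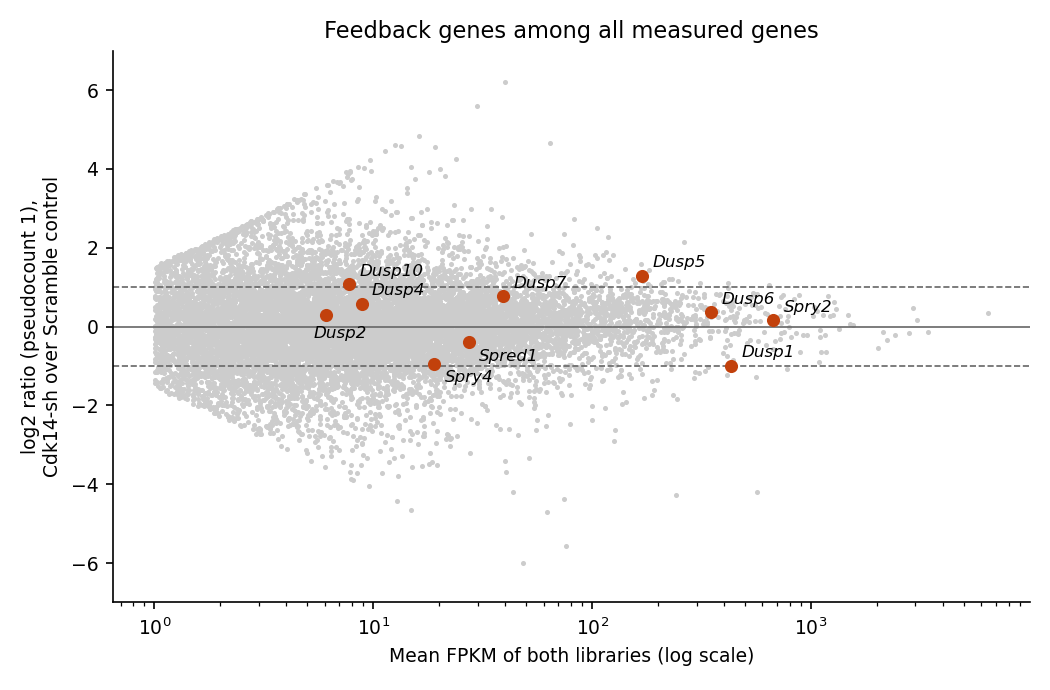
log2 ratio with a pseudocount of 1 (Cdk14-sh over Scramble control) against mean FPKM (log axis) for the 12819 measured genes (grey) and the 10 feedback genes (orange); dashed lines mark 2-fold. The scatter narrows with level, and Dusp5 and Dusp1 lie toward its upper and lower sides among genes above 100 FPKM.

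Short-lived messages often carry the pentamer ATTTA in the untranslated region after the stop codon, where proteins that promote decay bind. In the longest such region annotated for each gene (GENCODE M21), Dusp1 had 4 copies in 693 bases and Dusp2 had 4 in 584 bases. These are densities of 5.77 and 6.85 copies per kilobase, reached by 4.16% and 2.59% of the 10116 measured genes with such a region. The other phosphatase genes carried fewer per kilobase. Dusp5 had 1 copy in 1112 bases, Dusp6 had 1 in 1193 bases and Dusp7 had 0 in 1781 bases. Dusp4 had 2 in 1114 bases and Dusp10 had 3 in 1116 bases. Spred1 had 12 copies in 4333 bases and Spry4 had 7 in 3562 bases, densities of 2.77 and 1.97 per kilobase. Spry2 had 2 copies in 859 bases. Over the 10116 measured genes with such a region, the median log2 ratio was -0.03 for the 2427 genes with 5 or more copies. It was 0.07 for the 7689 with fewer. This split is by number of copies and not by density, so Dusp1 and Dusp2, with 4 copies each, fall among those with fewer.

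The relatives of these genes were also mixed. Of the remaining MAP kinase phosphatases, Dusp8, which acts on JNK and p38, was at 37.9 FPKM in Cdk14-sh and 22.5 FPKM in Scramble control. Dusp9, an ERK phosphatase, was at 3.32 FPKM in Cdk14-sh and 0.938 FPKM in Scramble control, 3.54-fold higher (1.88 to 7.15). Dusp16, a JNK phosphatase, was lower, at 8.22 FPKM in Cdk14-sh and 11.8 FPKM in Scramble control. Of 14 atypical dual-specificity phosphatases, 8 were measured, 7 of them higher in Cdk14-sh (51.4% of all measured genes were above 0), and their median log2 ratio was 0.41. At least 2-fold higher were 0 of the 8, where 14.3% of measured genes were, and so small a list cannot be told from that share. The exception, Dusp3, was at 21.9 FPKM in Cdk14-sh and 47.3 FPKM in Scramble control, 2.16-fold lower (1.95 to 2.40). Spry1, a further Sprouty gene, had a lower ratio than any of the 10, at 10.3 FPKM in Cdk14-sh and 31.6 FPKM in Scramble control, a 3.08-fold difference (2.56 to 3.72). In Spry1 24.4%, and in Dusp3 12.9%, of exonic bases are also covered by an opposite-strand gene. Spred2 was at 8.81 FPKM in Cdk14-sh and 8.42 FPKM in Scramble control.

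Genes of the cascades that these inhibitors act on were more often below 0 than above it, and other ERK-induced genes slightly more often above. Of 20 Ras-ERK cascade genes 7 were above 0 and 13 below, with a median log2 ratio of -0.22; 1 was past 2-fold upwards and 3 downwards. Braf, a Raf kinase, was at 14.05 FPKM in Cdk14-sh and 6.29 FPKM in Scramble control. Sos2, a Ras exchange factor, was 4.33-fold lower (3.59 to 5.31) at 2.99 FPKM in Cdk14-sh and 12.9 FPKM in Scramble control. Of 13 measured JNK and p38 cascade genes 3 were above 0 and 10 below, with a median of -0.48; 1 was past 2-fold upwards and 4 downwards. The JNK genes Mapk8 and Mapk9 were 2.92-fold (2.51 to 3.40) and 3.94-fold (3.32 to 4.74) lower. A further JNK gene, Mapk10, and the p38 genes Mapk11 and Mapk12 were not listed. The p38 genes that were listed did not share a direction. Mapk14, which encodes p38 alpha, was 2.90-fold higher (2.34 to 3.64), and Mapk13 was 2.28-fold lower (1.89 to 2.74). Map2k6 had the lowest ratio of this list, 6.42-fold lower (4.04 to 10.7) at 1.20 FPKM in Cdk14-sh and 7.70 FPKM in Scramble control. Over all measured genes 51.4% were above 0 and 48.6% below, and 14.3% and 13.5% were past 2-fold upwards and downwards. The 2-fold counts of the Ras-ERK list are near or below those shares. The downward count of the JNK and p38 list, 4 of 13, is above its share, but the list is small and the excess was not tested.

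Among 14 other ERK-induced genes, 8 were above 0, 4 were at least 2-fold higher and 1 was at least 2-fold lower, with a median of 0.25. The number above 0 is near the 51.4% of all measured genes, and the 2-fold counts stand beside 14.3% and 13.5%. The ETS factor genes Etv1 and Etv4 had the highest ratios, but their more abundant relative Etv5 was nearly equal in the libraries. Etv5 was at 35.9 FPKM in Cdk14-sh and 35.1 FPKM in Scramble control, a ratio of 1.02 (0.924 to 1.14). Etv4 was at 8.61 FPKM in Cdk14-sh and 1.58 FPKM in Scramble control, 5.45-fold higher (3.54 to 8.71), and Etv1 was 5.98-fold higher (4.71 to 7.58) at 7.37 FPKM in Cdk14-sh and 1.23 FPKM in Scramble control. Fos, an early response gene, had the lowest ratio of the 14, at 283 FPKM in Cdk14-sh and 591 FPKM in Scramble control, 2.09-fold lower (2.01 to 2.18). Of 12 other Ras and receptor kinase inhibitors 11 were measured, 6 above 0 and 5 below, with a median of 0.25. They ran from Lrig3, 3.94-fold lower (3.03 to 5.18), to the ubiquitin ligase gene Cblb, 2.55-fold higher (2.22 to 2.95).

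**Figure D5:**
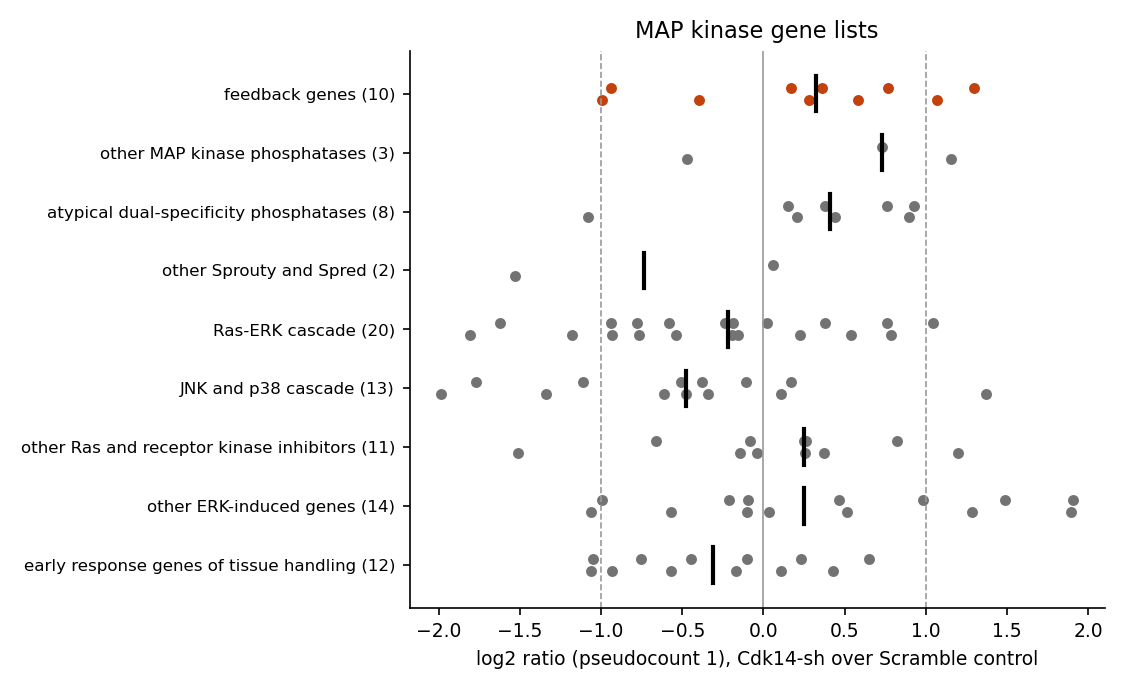
log2 ratio with a pseudocount of 1 (Cdk14-sh over Scramble control) of each measured gene in 9 lists, with the number measured in parentheses; black bars are list medians and dashed lines mark 2-fold. The 10 feedback genes (orange) spread from -0.996 to 1.30 with a median of 0.32, and the JNK and p38 cascade has a median of -0.48.

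The levels of markers of other cell types differed between the libraries, and their part in the differences above was not tested. Neither was that of early response genes of the kind induced by handling of tissue. Of 12 such genes 8 were below 0 (48.6% of all measured genes) and 2 at least 2-fold lower (13.5%), with a median of -0.31 and summed levels of 2443 FPKM in Cdk14-sh and 3137 FPKM in Scramble control. Of 8 endothelial markers, 7 were in the table and 7 were at least 2-fold lower, with summed levels of 35.9 FPKM in Cdk14-sh and 199.5 FPKM in Scramble control; Kdr is not listed. Of 8 immune markers 6 were listed, without Cd3e and Cd79a, and 5 of them were higher in Cdk14-sh. Their summed level was 386 FPKM in Cdk14-sh and 105 FPKM in Scramble control. In Cdk14-sh this sum was led by the antigen-presentation genes Cd74 (175 FPKM, 49.0 FPKM in Scramble control) and H2-Ab1 (125 FPKM, 23.6 FPKM in Scramble control). Ptprc was lower and scarce, at 0.247 FPKM in Cdk14-sh and 0.482 FPKM in Scramble control. Pericyte markers (4 of 6 listed, without Pdgfrb and Cspg4, 3 of the 4 lower in Cdk14-sh) summed to 59.6 FPKM in Cdk14-sh and 127 FPKM in Scramble control. Of the 4 fibroblast markers listed (of 6, without Pdgfra and Lum), 3 were higher in Cdk14-sh, with a median log2 ratio of 1.02. Their sum was nevertheless 68.0 FPKM in Cdk14-sh and 113 FPKM in Scramble control, since the most abundant, Dcn, was at 41.2 FPKM in Cdk14-sh and 104 FPKM in Scramble control. Of the 7 luminal markers listed (of 9, without Elf5 and Foxa1), 4 were higher and 3 lower in Cdk14-sh. Their sum of 601 FPKM in Cdk14-sh and 1146 FPKM in Scramble control was led by the lower keratin genes Krt8 and Krt18. In such bulk libraries, fewer cells of a type and less RNA per cell cannot be told apart.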

How the data were processed

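The authors built libraries with a stranded mRNA kit, per the labels' protocols. The submitters' processing notes name Bowtie 0.12.2, featureCounts, Subread 1.5.1, mm8 and GRCm38; no source used here says which build served which step, or how strand and multiply mapped reads were handled. FPKM values deposited by the authors, in a column per library, were assigned by column name to the sample titles. It lists no gene at 0, so genes found in a single library are missing from every count. Of rows with the same symbol, the most abundant was kept (15224 symbols).

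Log2 ratios were taken after adding 1 to both FPKM values, which shrinks differences between scarce genes; fold values are FPKM ratios without a pseudocount. Measured genes have a mean of at least 1 FPKM, which all 10 members passed. Reads were recovered from FPKM and GENCODE M21 (GRCm38) exonic lengths. Both values were multiples of 0.5 reads (tolerance 0.01 reads) for 79.2% of 15195 genes and for 6 of the 10 members; for Dusp1, Dusp6, Spry2 and Spry4 the reads and intervals are approximate. The total of each library was set by taking its commonest lowest value as 2 reads, an assumption on which all read counts rest. These 2 reads were taken as 1 fragment in Clopper-Pearson and Poisson intervals. No molecular identifiers are mentioned, so reads may repeat a molecule. The arithmetic was tested on simulated data built with 2 reads per fragment, which could not test the assumption of 2 reads.

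All 10 members are named, and of each other list genes among the highest 3 or lowest 3 by log2 ratio. Mapk13 and Etv5 are named besides these, as relatives of named genes, Krt14 for its part in a summed level, and Ptprc as the lower immune marker. Some genes are named because they were not listed. The members and lists were chosen with earlier results of these data known. Analyses used Python 3.11.15, pandas 2.3.3, NumPy 2.4.6, SciPy 1.17.1 and matplotlib 3.10.9.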

Additional observations from a re-analysis of the deposited data

How the results depend on the processing

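No paired analysis was possible because each group held 1 library. Alternatives were pseudocounts of 0.1 and 5, 4 scalings, other filters, other fold limits and the mean. The count of 2 genes at least 2-fold higher became 1 with a pseudocount of 5, which left Dusp5, and 0 with a limit of 4-fold. The count of 0 genes at least 2-fold lower became 1 (Dusp1) with median ratio, trimmed mean or upper quartile scaling, 2 (Dusp1 and Spry4) with TPM scaling and 2 with a limit of 1.5-fold. The median log2 ratio of the 10 genes stayed between 0.22 (the mean in its place) and 0.34. Single-gene values were taken under the pseudocounts, the scalings and a sum over rows of the same symbol, which left every member unchanged. Of these 70 values 0 changed sign. Under TPM scaling 3 moved by more than the mean one-sided reach of their counting interval, and under the other settings none did. Scalings shifted the median of all measured genes to between -0.04 and 0.01 on the log2 scale. Replicate spread is unknown for every gene, and counting error adds most among the 10 genes for Dusp2, Dusp4 and Dusp10, with 110 to 336 reads.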
